A study of Rattus norvegicus with 8 samples.

Results

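Collagen chain genes encode the polypeptides that assemble into the collagens of the extracellular matrix. They were taken as all genes whose symbol in the array's platform annotation reads Col, a type number, the letter a and a chain number. This gave 41 genes of the 14217 that carry a symbol of their own on the array, each represented by its brightest probe set. Of the 41, 11 encode chains of fibrillar collagens, 5 encode chains of type IV collagen, the collagen of basement membranes, and 25 belong to other types.

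The study measured RNA with Affymetrix arrays in aortic vascular smooth muscle cells of male Sprague-Dawley rats, grown in serum and passaged before use. The targeted transcript, Giver, is a lncRNA (a long RNA that codes for no protein), and angiotensin II (Ang II) is a vasoconstrictor hormone. The 4 groups were cells given Giver siRNA (siGiver) for 48 h and then 100 nM Ang II for 3 h, siGiver cells given phosphate-buffered saline (PBS) in its place, cells given a non-targeting siRNA (siNTC) and then Ang II, and siNTC cells given PBS. Each group had 2 arrays, and all groups had received an siRNA, so there was no untransfected group. The labels do not state if the 2 arrays of a group were separate cultures. The p-values therefore reflect the scatter of these arrays, and that scatter may be technical.

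A collagen is made of chains wound around each other into a long helix. Fibrillar collagens (types I, II, III, V, XI, XXIV and XXVII) are trimmed outside the cell and pack into fibrils that bear tension, and types I and III make up most of the collagen of the arterial wall. Type IV collagen forms the sheet-like net of the basement membrane that surrounds each smooth muscle cell. Other types make beaded filaments (type VI) or hexagonal nets (types VIII and X), or belong to the fibril-associated family (types IX, XII, XIV, XVI and XIX among others). Some members of that family form links on the surface of fibrils. Types XV and XVIII are proteoglycans of the basement membrane zone.

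The type IV genes lie in pairs that are read away from each other, and all 4 tested type IV genes were higher in siGiver cells given Ang II, so the sequence between them is shown first. In RefSeq's annotation of the rat assembly GRCr8, the start of Col4a1 on the plus strand of chromosome 16 and the start of Col4a2 on the minus strand were 77 bases apart. The 76 bases between the starts occupy chr16:84885521-84885596 and are printed on the plus strand, 5′ to 3′. For the Col4a5 and Col4a6 pair on chromosome X, and for Col6a3, which had the widest difference between the siRNA arms, the bases printed are those of the RefSeq promoter window that lie before the annotated gene, read on the gene's own strand. Capitals mark a GC box, GGGCGG on either strand.
Col4a1-Col4a2: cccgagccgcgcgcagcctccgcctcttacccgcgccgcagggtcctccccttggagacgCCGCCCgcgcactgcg
Col4a5: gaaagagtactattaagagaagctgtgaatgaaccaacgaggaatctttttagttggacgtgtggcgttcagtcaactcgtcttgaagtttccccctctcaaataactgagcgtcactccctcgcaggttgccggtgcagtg
Col4a6: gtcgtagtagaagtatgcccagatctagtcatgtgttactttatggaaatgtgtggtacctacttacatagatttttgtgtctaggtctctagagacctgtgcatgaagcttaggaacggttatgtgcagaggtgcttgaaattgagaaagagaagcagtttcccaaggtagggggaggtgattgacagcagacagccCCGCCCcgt
Col6a3: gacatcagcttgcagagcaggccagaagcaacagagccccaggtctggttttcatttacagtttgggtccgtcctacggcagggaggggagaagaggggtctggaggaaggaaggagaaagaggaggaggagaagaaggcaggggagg

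These 4 stretches span 76, 142, 207 and 148 bases. Those of Col4a5, Col4a6 and Col6a3 lie at chrX:109907109-109907250 (plus strand), chrX:109905988-109906194 (minus strand) and chr9:98887061-98887208 (minus strand). The shared Col4a1 and Col4a2 stretch was 78.9% G and C with 13 CG pairs, against 47.9% for Col4a5, 46.4% for Col4a6 and 57.4% for Col6a3. A GC box lay in the Col4a1 and Col4a2 stretch and in that of Col4a6, on the opposite strand to the one printed. Promoter windows of 300 bases were available for 32 of the 41 collagen genes, and 18 of these windows (56.2%) held a GC box, against 34.9% of 27457 windows over all genes. The CCAAT box (CCAAT) was in 28.1% of the collagen windows and 37.7% of all windows, the TATA box (TATAAA) in 12.5% and 14.3%, and the AP-1 element (TGANTCA) in 3.12% and 7.33%, counting both strands. None of the 4 motifs contains another. The matches describe letters and not binding.

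Deposited values are log2 intensities, and a level can be compared between arrays for 1 gene but not between genes. The filter used for testing keeps probe sets whose mean over all 8 arrays is at least 4.81 log2, the 30th percentile of the array, and 32 of the 41 collagen genes passed it. All 4 group means of each of these 32 lay above that value, so none passed through 1 group alone. The other 9 were Col24a1, Col4a4, Col6a5, Col6a6, Col9a1, Col9a3, Col13a1, Col17a1 and Col25a1, whose group means lay between 2.67 and 4.54 log2, and these were not tested. Of the 32 tested genes, 20 passed in at least 1 of the 5 comparisons below. The share of all tested genes that passed at least once was not computed. Where siGiver was compared with siNTC cells, 35% (PBS) and 44.3% (Ang II) of all tested genes passed. The count of 20 is therefore not read as a trait of collagen genes. The 12 that passed in none at their brightest probe set were Col1a2, Col2a1, Col8a1, Col9a2, Col10a1, Col11a2, Col15a1, Col16a1, Col20a1, Col22a1, Col23a1 and Col26a1. Dimmer probe sets of Col1a2 and Col15a1 did pass, as given below.

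The cell label was checked against marker genes. All 8 smooth muscle markers passed the filter, with the highest levels for Tagln, at 14.0 to 14.1 log2 in the 4 groups. All 7 endothelial markers on the array lay below the filter in every group (highest 4.47, Kdr in siGiver PBS cells). Of 8 macrophage markers 3 passed it, with Cd14 at 8.15 to 8.61 log2 in the 4 groups, while the pan-leukocyte gene Ptprc lay at or below 3.43. All 8 fibroblast markers passed the filter too, led by Lum at 12.2 to 12.6 log2. The array's 5S rRNA control read 7.71 to 7.77 in siGiver Ang II arrays, 7.62 to 7.64 in siGiver PBS arrays, 8.88 to 8.93 in siNTC Ang II arrays and 8.15 to 8.24 in siNTC PBS arrays, and was thus highest where many collagen genes were lowest. Its part in the results was not tested. The 3′ minus 5′ difference of the beta-actin control, a sign of RNA integrity, ranged only from 0.23 to 0.30 log2 over the 8 arrays.

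**Figure D1:**
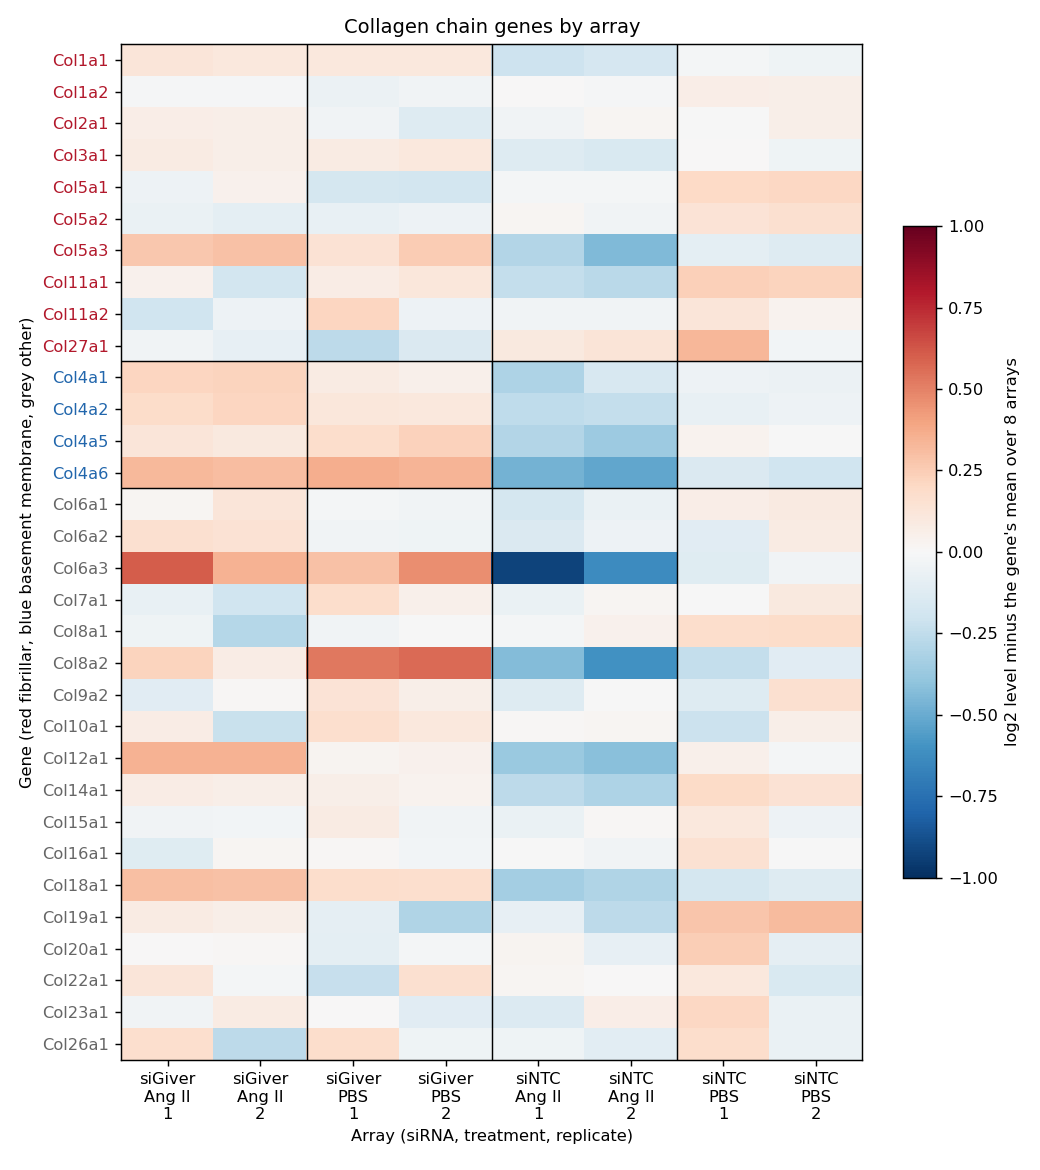
Log2 level of each of the 32 tested collagen genes on each of the 8 arrays, minus the gene's mean over the arrays, with genes in rows by class (red names fibrillar, blue basement membrane, grey other) and arrays in columns by group. For 17 of the 32 genes the siNTC Ang II group has the lowest mean, and the type IV genes and Col6a3 show this in both of its arrays. The share of all tested genes with their lowest mean in that group was not computed.

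Differences below come from 1 linear model fitted with limma to all 11377 genes tested, given as log2 differences ± standard error (SE, 2 arrays per group), and a gene is said to have passed when its Benjamini-Hochberg adjusted p over all those genes was under 0.05. Alternative fits are refits with another filter, scaling, probe set rule, moderation or set of arrays, each read at a gene's brightest or averaged probe sets. A threshold of 1.5-fold is not among them and is given apart. In siNTC cells, some collagen genes of every class were lower after 3 h of Ang II. Of the 32 tested genes 10 passed, where 6.14% of all tested genes passed. All 10 fell, where 2.17% of all tested genes fell, and none rose, where 3.96% of all tested genes rose. Limma found 0 collagen genes higher at an unadjusted p under 0.05 as well, and 17 lower. The estimate was negative for 30 of the 32, with a median of -0.16 log2, against 0.0058 over all tested genes. The arrays of the 2 groups did not overlap for 21 of the 32, where they did not overlap for 52.7% of all tested genes. Fibroblast markers moved in the same comparison, with 4 of 8 lower (Dcn, Pdgfra, Scara5 and Lum), as did 3 of 8 smooth muscle markers (Myh11, Cald1 and Acta2), and the part of these shifts in the collagen result was not tested. In bulk RNA, fewer cells of a type and less RNA per cell cannot be told apart.

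Among fibrillar genes, Col11a1 and Col5a1 fell in siNTC cells. Both encode chains of the minor fibrillar collagens that start fibrils and set their width. Col11a1 read 10.25 and 10.22 log2 in siNTC Ang II arrays and 10.73 and 10.71 in siNTC PBS arrays, so both Ang II arrays lay below both PBS arrays by far more than the replicates differed. Its difference was -0.48 ± 0.073 (1.40-fold lower, adjusted p = 0.00986). A dimmer probe set of Col11a1 gave -0.87 (adjusted p = 0.006 among all probe sets) and the dimmest gave -0.43 without passing. Col5a1 read 10.76 on both siNTC Ang II arrays and 10.98 and 10.99 on the siNTC PBS arrays, a difference of -0.22 ± 0.047 (adjusted p = 0.036). Calls for both genes were lost when any 1 of the 4 siNTC arrays was left out. That of Col5a1 was lost in 11 of 17 alternative fits, among them those without either siGiver PBS array, without the filter and with array medians subtracted.

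The main fibrillar genes of the arterial wall shifted less. Col1a1, which encodes the major chain of type I collagen, read 12.40 and 12.44 in siNTC Ang II arrays and 12.59 and 12.57 in siNTC PBS arrays, a difference of -0.16 ± 0.042 that did not pass (adjusted p = 0.0721). Its partner chain Col1a2 stood at -0.06 ± 0.041 and Col3a1 at -0.12 ± 0.043, and neither passed. For these bright genes, with mean levels between 12.6 and 14.1 log2, the arrays of the groups did not overlap. Of 10 tested fibrillar genes, all 10 had negative estimates, between -0.48 and -0.03, with a median of -0.14.

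Basement membrane genes had the lowest class median in this comparison, -0.25 log2, with 3 of the 4 tested lower. Col4a5 read 10.78 and 10.72 in siNTC Ang II arrays and 11.11 and 11.07 in siNTC PBS arrays (-0.34 ± 0.047, adjusted p = 0.00702). Col4a6, whose product pairs with that of Col4a5 in the basement membrane of smooth muscle, read 7.01 and 6.96 against 7.34 and 7.29, a difference of -0.33 ± 0.045 (adjusted p = 0.00724). At their brightest probe sets the members of this pair thus differed by nearly the same amount, with groups that did not overlap. A dimmer Col4a6 probe set gave -0.21 without passing (adjusted p = 0.0924 among all probe sets). Col4a2 stood at -0.18 ± 0.042 (adjusted p = 0.0498), and Col4a1 at -0.18 ± 0.055 without passing (adjusted p = 0.108). The Col4a2 call was lost in 14 of 17 alternative fits, including each array left out, and the Col4a5 and Col4a6 calls were lost without siNTC PBS replicate 1 or siNTC Ang II replicate 2.

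Of the 18 other genes tested, 5 fell with Ang II in siNTC cells, and their median was -0.12. Col6a3, the largest chain of the beaded filament collagen VI, read 5.10 and 5.39 log2 in siNTC Ang II arrays, against 5.90 and 5.99 in siNTC PBS arrays. Its difference of -0.70 ± 0.12 (1.62-fold lower, adjusted p = 0.0165) was the only collagen call of at least 1.5-fold, and was lost when siNTC Ang II replicate 1 or any siNTC PBS array was left out. The other chains of this collagen, Col6a1 (-0.20 ± 0.057) and Col6a2 (-0.09 ± 0.069), did not pass.

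Collagens of the fibril-associated family were prominent among the 5. Col14a1 read 9.71 and 9.67 in siNTC Ang II arrays and 10.17 and 10.12 in siNTC PBS arrays (-0.45 ± 0.044, adjusted p = 0.00166). Col12a1 read 7.58 and 7.54 against 8.01 and 7.93 (-0.41 ± 0.046, adjusted p = 0.00327), and Col19a1 read 6.64 and 6.46 against 7.00 and 7.04 (-0.47 ± 0.082, adjusted p = 0.0178). The Col19a1 call was lost without siNTC Ang II replicate 2 or any siNTC PBS array, and that of Col12a1 when its probe sets were averaged. Col14a1 and Col12a1 were the 2 of the 10 called genes that passed whichever array was left out. A dimmer Col14a1 probe set gave -0.35 without passing (adjusted p = 0.0573 among all probe sets). Col8a2, a chain of a net-forming collagen, read 5.29 and 5.12 in siNTC Ang II arrays against 5.48 and 5.60 in siNTC PBS arrays (-0.34 ± 0.078, adjusted p = 0.0467), a call lost in 14 of 16 alternative fits. Its partner Col8a1 stood at -0.17 ± 0.076 and did not pass.

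In siGiver cells the response of collagen genes to Ang II had no common direction. Of the 32 tested, 4 passed, where 16.3% of all tested genes passed: 2 rose and 2 fell, where 9.11% of all tested genes rose and 7.17% fell. The arrays of the groups did not overlap for 23 of the 32, where 62.3% of all tested genes showed no overlap. The median was 0.026 log2 against -0.028 over all tested genes. Col12a1 rose to 8.30 on both siGiver Ang II arrays, against 7.98 and 7.99 on the siGiver PBS arrays, by 0.32 ± 0.046 (1.24-fold, adjusted p = 0.00399). This call held whichever array was left out, but not when its probe sets were averaged, which brings in a dimmer set at 5.39 log2. Col5a1 read 10.73 and 10.82 with Ang II and 10.60 on both PBS arrays (0.18 ± 0.047, adjusted p = 0.0417).

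The genes that fell in siGiver cells belong to other types. Col8a2 read 5.94 and 5.79 in siGiver Ang II arrays and 6.25 and 6.28 in siGiver PBS arrays (-0.40 ± 0.078, adjusted p = 0.0146), a call lost without either siGiver PBS array or siGiver Ang II replicate 2. Col7a1, the chain of anchoring fibrils, read 5.50 and 5.38 against 5.75 and 5.63 (-0.25 ± 0.069, adjusted p = 0.0478), lost in 15 of 16 alternative fits. The Col5a1 call was lost in 14 of 17 alternative fits. Among basement membrane genes the estimates were 0.15 ± 0.055 for Col4a1, 0.09 ± 0.042 for Col4a2, -0.09 ± 0.047 for Col4a5 and -0.04 ± 0.045 for Col4a6, and limma called 0 of the 4, with 1 higher at an unadjusted p under 0.05. Col1a1 (0.0072 ± 0.042), Col1a2 (0.03 ± 0.041), Col3a1 (-0.02 ± 0.043), Col6a3 (0.10 ± 0.12) and Col8a1 (-0.15 ± 0.076) did not pass either.

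**Figure D2:**
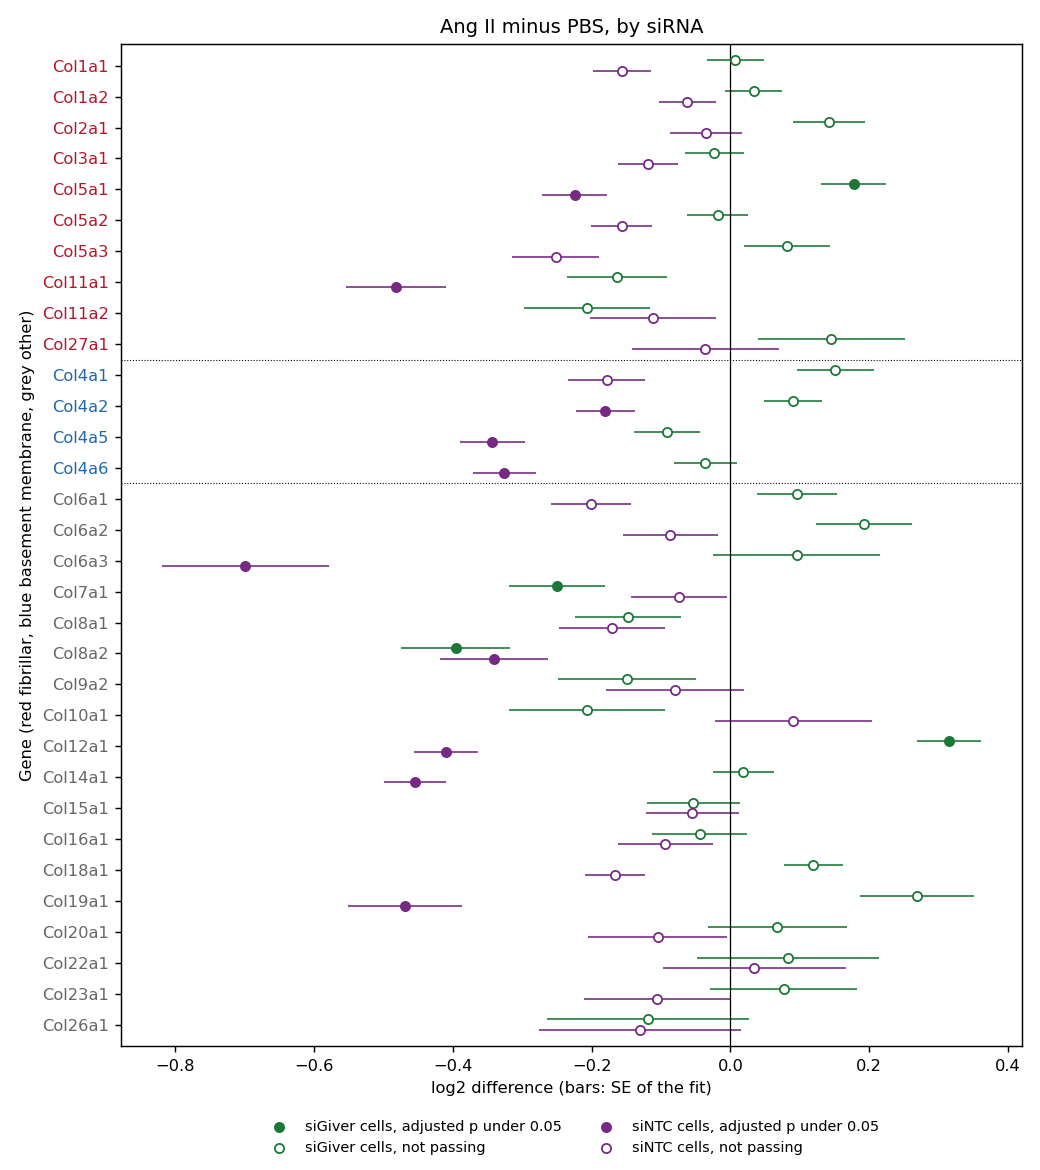
Log2 difference of Ang II minus PBS for the 32 tested collagen genes in siGiver cells (green) and siNTC cells (purple), with SE bars, 2 arrays per group, filled points at adjusted p under 0.05 and gene names coloured by class. The purple points lie left of 0 for 30 of 32 genes, with 10 filled, whereas the green points lie on both sides with 4 filled.

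The difference between these responses was tested as an interaction, the Ang II difference of the siGiver arm minus the Ang II difference of the siNTC arm, which uses all 4 groups. It passed for 8 of the 32 collagen genes, where 6.21% of all tested genes passed. It was positive for all 8, where 3.35% of all tested genes passed upward, and negative for 0, where 2.87% passed downward. At an unadjusted p under 0.05 limma found 16 positive and 0 negative. The median was 0.18 log2, against -0.022 over all tested genes. Of 8 fibroblast markers 1 passed (Dcn, 0.39), and of 3 macrophage markers tested 1 passed (Cd14, -0.40, adjusted p = 0.0222). Of 8 smooth muscle markers limma called 0, but 7 were positive, 5 of them at an unadjusted p under 0.05, with a median of 0.19 log2, close to that of the collagen genes. The part of these markers in the result was not tested.

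In the fibril-associated family, the Ang II difference of Col12a1 was 0.32 in siGiver cells and -0.41 in siNTC cells, an interaction of 0.73 ± 0.065 (adjusted p = 0.00116). Col12a1 was thus called in opposite directions in the arms, and its interaction did not pass with its probe sets averaged. Col19a1 had an Ang II difference of 0.27 ± 0.082 in siGiver cells, which did not pass, and -0.47 in siNTC cells, an interaction of 0.74 ± 0.12 (adjusted p = 0.0123) that was lost without siNTC PBS replicate 2. Col14a1 stood at 0.02 ± 0.044 in siGiver cells and -0.45 in siNTC cells, and its interaction of 0.47 ± 0.063 (adjusted p = 0.00618) passed in every alternative fit, and at 1.39-fold lay under the 1.5-fold threshold. Col6a3 had the largest interaction in size, 0.79 ± 0.17 (adjusted p = 0.0368), but its arrays were more scattered, and the call was lost in 8 of 15 alternative fits.

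Col5a1 was the only fibrillar gene whose brightest probe set passed the interaction test, at 0.40 ± 0.066 (adjusted p = 0.0143), with Ang II differences of 0.18 in siGiver cells and -0.22 in siNTC cells. This call was lost when any of 5 arrays was left out: siNTC PBS replicate 2, either siNTC Ang II array, siGiver PBS replicate 1 or siGiver Ang II replicate 2. A dimmer Col11a1 probe set also passed (0.79, adjusted p = 0.0289 among all probe sets), while the brightest stood at 0.32 ± 0.10 and did not. Among basement membrane genes, Col4a6 (0.29 ± 0.064, adjusted p = 0.0408) and Col4a2 (0.27 ± 0.059, adjusted p = 0.0402) passed. Col4a1 (0.33 ± 0.078, adjusted p = 0.052) and Col4a5 (0.25 ± 0.067, adjusted p = 0.0706) did not. Col18a1, which encodes a basement membrane proteoglycan and the precursor of endostatin, had an interaction of 0.29 ± 0.061 (adjusted p = 0.0369). The calls of Col4a2, Col4a6 and Col18a1 were each lost in 11 of 16 alternative fits, including every fit without 1 array.

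The effect of the siRNA itself was read in PBS. Collagen genes differed in both directions here. Of the 32 tested, 8 were higher in siGiver than in siNTC cells, where 16% of all tested genes were higher, and 4 were lower, where 19.1% were lower, so the total of 12 is close to the 35% of all tested genes that passed in either direction. The median was -0.00038 log2. The arrays of the groups did not overlap for 21 of the 32, against 67.1% of all tested genes. By class, 3 of 4 basement membrane genes were higher, 2 of 10 fibrillar genes were higher and 3 lower, and 3 of 18 other genes were higher and 1 lower. Smooth muscle markers were higher in 5 of 8 and lower in 1, and fibroblast markers higher in 1 of 8, and their part in these differences was not tested.

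Within the fibrillar class, the chains of type V collagen moved in opposite directions. Col5a1 read 10.60 on both siGiver PBS arrays and 10.98 and 10.99 on the siNTC PBS arrays (-0.39 ± 0.047, 1.31-fold lower, adjusted p = 0.000736), and its second probe set gave -0.32. Col5a2 read 13.06 and 13.08 against 13.27 and 13.29, a difference of -0.21 ± 0.044 (adjusted p = 0.00795). Col5a3 read 7.60 and 7.71 against 7.36 and 7.33 (0.31 ± 0.063, 1.24-fold, adjusted p = 0.00677). All 3 type V calls passed in every alternative fit, and all 3 lay under 1.5-fold.

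The remaining fibrillar calls in PBS were lost in most alternative fits. Col27a1, a fibrillar collagen of cartilage, read 5.31 and 5.43 in siGiver PBS arrays and 5.90 and 5.54 in siNTC PBS arrays (-0.35 ± 0.11, adjusted p = 0.0352), a call lost without 7 of the 8 arrays in turn. Col1a1 read 12.72 and 12.71 in siGiver PBS arrays against 12.59 and 12.57 in siNTC PBS arrays (0.14 ± 0.042, adjusted p = 0.0361). This call was lost whichever array was left out, and the second Col1a1 probe set gave -0.04 without passing. Col1a2 (-0.11 ± 0.041) and Col3a1 (0.11 ± 0.043) did not pass, although a dimmer Col1a2 probe set gave -0.26 (adjusted p = 0.00521 among all probe sets).

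Of the 4 basement membrane genes tested, 3 stood higher in siGiver cells in PBS. Col4a6 read 7.85 and 7.83 in siGiver PBS arrays, against 7.34 and 7.29 in siNTC PBS arrays (0.52 ± 0.045, 1.44-fold, adjusted p = 0.000172). Col4a5 read 11.25 and 11.30 against 11.11 and 11.07, a difference of 0.19 ± 0.047 (adjusted p = 0.0187), and Col4a2 read 9.48 and 9.47 against 9.29 and 9.31, a difference of 0.17 ± 0.042 (adjusted p = 0.0163). The 4 tested estimates were all positive at the brightest probe sets, and Col4a1 (0.12 ± 0.055) did not pass. Second probe sets gave -0.08 for Col4a1, without passing, and 0.22 for Col4a6 (adjusted p = 0.0251 among all probe sets). The Col4a6 call passed in every alternative fit but lay under 1.5-fold, while the Col4a5 call was lost without siNTC PBS replicate 2 or siGiver PBS replicate 2, and the Col4a2 call without siNTC PBS replicate 1 or either siGiver PBS array.

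Among other collagens, Col8a2 had the largest difference in PBS. It read 6.25 and 6.28 in siGiver PBS arrays and 5.48 and 5.60 in siNTC PBS arrays (0.72 ± 0.078, 1.65-fold, adjusted p = 0.000428), whereas its partner Col8a1 stood at -0.20 ± 0.076 and did not pass. Col18a1 read 10.98 and 10.97 against 10.62 and 10.67 (0.33 ± 0.043, adjusted p = 0.00103), with 0.38 from its second probe set. Col6a3 was higher by 0.46 ± 0.12 (adjusted p = 0.021), which was lost when siGiver PBS replicate 2 or any siNTC PBS array was left out. Col19a1 was the only one of the 18 other genes to be lower, with 6.63 and 6.42 in siGiver PBS arrays against 7.00 and 7.04 in siNTC PBS arrays (-0.50 ± 0.082, 1.41-fold lower, adjusted p = 0.00292).

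**Figure D3:**
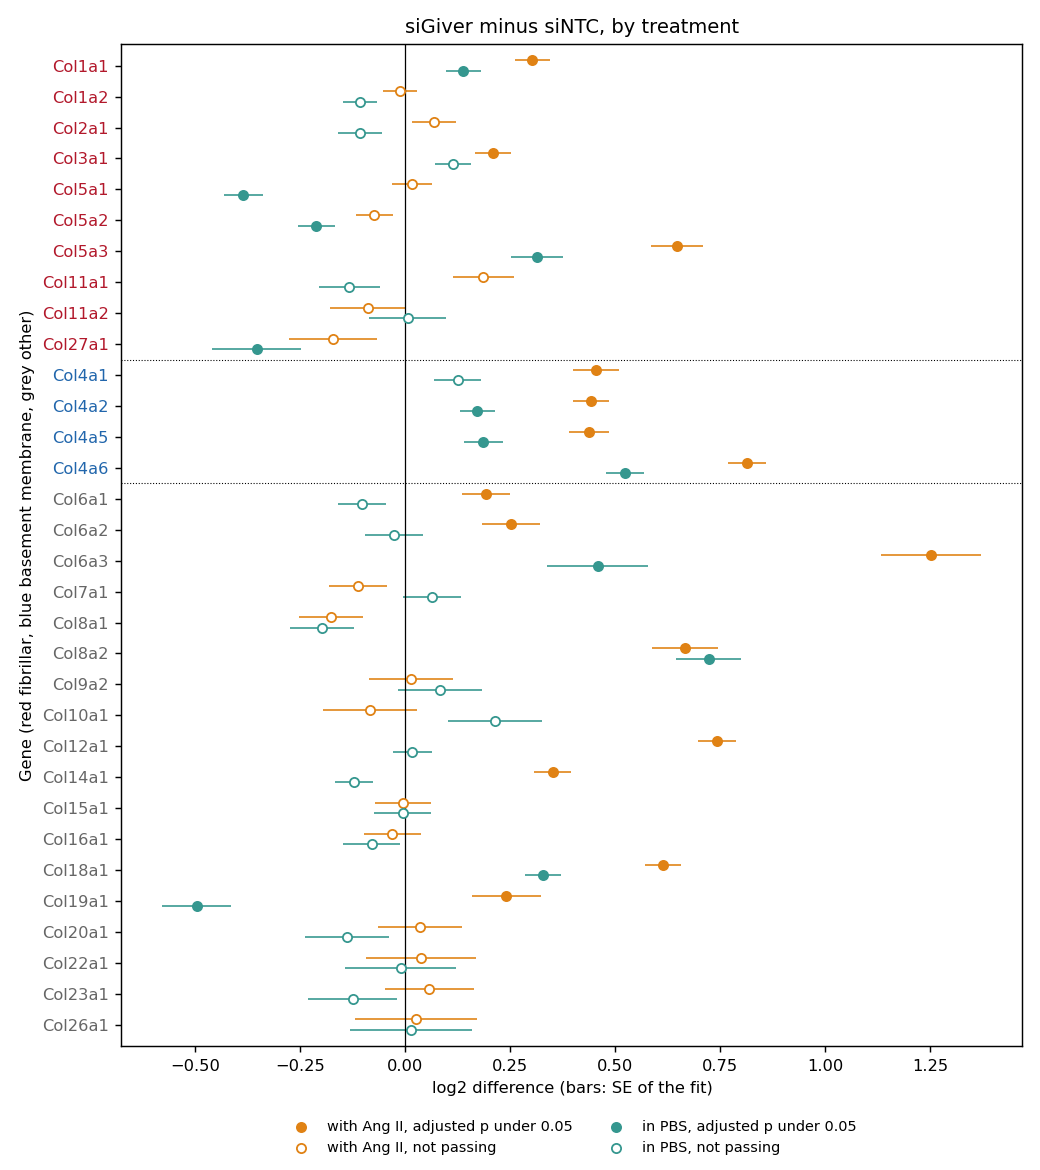
Log2 difference of siGiver minus siNTC for the 32 tested collagen genes with Ang II (orange) and in PBS (teal), with SE bars, 2 arrays per group, filled points at adjusted p under 0.05 and gene names coloured by class. With Ang II 15 points are filled, all right of 0, and in PBS 8 are filled right of 0 and 4 left of it.

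With Ang II present, 15 of the 32 collagen genes were higher in siGiver than in siNTC cells, where 19.5% of all tested genes were higher, and limma called 0 lower, where 24.8% of all tested genes were lower. No collagen gene was lower at an unadjusted p under 0.05 either, and 16 were higher. In either direction 44.3% of all tested genes passed. The median was 0.13 log2, against -0.026 over all tested genes. The arrays of the groups did not overlap for 23 of the 32, against 72.4% of all tested genes. This comparison shares the siNTC Ang II arrays with the Ang II comparison in siNTC cells, so a low level on those arrays enters both. Of the 15 calls, 12 passed in every alternative fit that tested the gene, and 6 of the 15 reached 1.5-fold. Col6a3 and Col8a2, among these 12, were not tested with the filter at the 50th percentile, so each was read in 16 fits. In 5 alternative fits 1 collagen gene was called lower: Col27a1 with only the groups of the contrast or without either siNTC PBS array, Col5a2 with trended, robust moderation, and Col8a1 without siGiver Ang II replicate 1. Smooth muscle markers were higher in 6 of 8 and lower in 1, and fibroblast markers higher in 4 of 8, in the same comparison. Of 3 macrophage markers tested, Cd14 (-0.45) and Cd68 (-0.60) were lower, and of 3 chondrocyte markers Acan was higher (0.60) and Matn1 lower (-0.27). Their part in the collagen result was not tested.

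All 4 tested basement membrane genes were higher, with a median of 0.45 log2, against 0.042 for 10 fibrillar and 0.047 for 18 other genes. Col4a6 read 7.81 and 7.79 in siGiver Ang II arrays and 7.01 and 6.96 in siNTC Ang II arrays, a difference of 0.81 ± 0.045 (1.76-fold, adjusted p = 1.79e-05). The head-to-head pair Col4a1 and Col4a2 differed by 0.45 ± 0.055 (adjusted p = 0.000494) and 0.44 ± 0.042 (adjusted p = 0.00016). Col4a1 read 11.07 and 11.08 against 10.55 and 10.69, and Col4a2 read 9.54 and 9.58 against 9.11 and 9.13. Col4a5 read 11.20 and 11.17 against 10.78 and 10.72 (0.44 ± 0.047, adjusted p = 0.000283). Second probe sets gave 0.16 for Col4a1 and 0.60 for Col4a6, and both passed among all probe sets.

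Of the 10 fibrillar genes, Col5a3, Col1a1 and Col3a1 were higher with Ang II present. Col5a3, a type V chain, read 7.73 and 7.75 in siGiver Ang II arrays and 7.17 and 7.02 in siNTC Ang II arrays (0.65 ± 0.063, 1.57-fold, adjusted p = 0.000173). Col1a1 read 12.73 and 12.72 against 12.40 and 12.44, a difference of 0.30 ± 0.042 (1.23-fold, adjusted p = 0.0009), while its second probe set gave 0.13 without passing. Col3a1, which encodes the chain of the distensible type III collagen, read 14.01 and 13.99 against 13.80 and 13.78 (0.21 ± 0.043, adjusted p = 0.00587). The dimmer Col11a1 probe set was higher by 0.62 (adjusted p = 0.00283 among all probe sets), whereas the brightest (0.19 ± 0.073) did not pass. Col1a2 (-0.01 ± 0.041), Col5a1 (0.02 ± 0.047) and Col5a2 (-0.07 ± 0.044) did not pass, so Col5a1, lower in siGiver cells in PBS, had an estimate near 0 here.

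The widest difference of any collagen gene was that of Col6a3, whose other probe set lay below the filter (mean 4.49 log2) and was not tested. Col6a3 read 6.63 and 6.37 in siGiver Ang II arrays and 5.10 and 5.39 in siNTC Ang II arrays (1.25 ± 0.12, 2.38-fold, adjusted p = 0.000166). Its partner chains were also higher, Col6a1 by 0.19 ± 0.057 (adjusted p = 0.0277) and Col6a2 by 0.25 ± 0.069 (adjusted p = 0.0195), though each call was lost when 1 of several arrays was left out (siNTC Ang II replicate 1 and siGiver Ang II replicate 2 for both, and siGiver Ang II replicate 1 for Col6a2), and the Col6a2 call also when its probe sets were averaged. Col6a1 read 9.84 and 9.94 in siGiver Ang II arrays and 9.64 and 9.75 in siNTC Ang II arrays, and Col6a2 read 9.32 and 9.31 against 9.01 and 9.11, without overlap. The assembly of type VI collagen needs all of these chains.

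Col12a1 read 8.30 on both siGiver Ang II arrays, against 7.58 and 7.54 on the siNTC Ang II arrays (0.74 ± 0.046, 1.67-fold, adjusted p = 2.81e-05). Its other probe set above the filter, with a mean of 5.39 log2, gave 0.12 here and -0.02 for Ang II in siNTC cells, and passed in neither. Col8a2 was higher by 0.67 ± 0.078 (1.59-fold, adjusted p = 0.000404), with 5.94 and 5.79 against 5.29 and 5.12, and Col8a1 stood at -0.18 ± 0.076 without passing. Col18a1 read 11.10 and 11.09 against 10.46 and 10.50 (0.61 ± 0.043, 1.53-fold, adjusted p = 4.43e-05), with 0.66 from its second probe set. Col14a1 read 10.05 and 10.03 in siGiver Ang II arrays, against 9.71 and 9.67 in siNTC Ang II arrays (0.35 ± 0.044, adjusted p = 0.000594). Col19a1 was higher by 0.24 ± 0.082 (adjusted p = 0.0459), a call lost in 7 of 17 alternative fits. A dimmer Col15a1 probe set was higher too (0.39, adjusted p = 0.00721 among all probe sets), where the brightest stood at -0.0048 ± 0.067. That dimmer set also rose with Ang II in siGiver cells (0.35, adjusted p = 0.0307 among all probe sets).

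Over both treatments, 8 collagen genes were called higher in siGiver cells in PBS and again with Ang II. These were Col1a1, Col4a2, Col4a5, Col4a6, Col5a3, Col6a3, Col8a2 and Col18a1. The share of all tested genes called higher in both was not computed, so the count is not read as a trait of collagen genes. Both calls passed in every alternative fit for Col4a6, Col5a3, Col8a2 and Col18a1. The PBS call of Col1a1 was lost in 13 of 17, and its second probe set did not pass in either comparison. Col19a1 was the 1 gene called lower in PBS and higher with Ang II. Col4a1, Col3a1, Col6a1, Col6a2, Col12a1 and Col14a1 were called with Ang II only. Of these 6, the interaction passed for Col12a1 and Col14a1, so for the other 4 a difference between treatments was not shown. A dimmer Col14a1 probe set was higher in siGiver cells in PBS too (0.28, adjusted p = 0.0354 among all probe sets), where the brightest stood at -0.12 ± 0.044, and its own interaction of 0.49 did not pass (adjusted p = 0.0588).

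**Figure D4:**
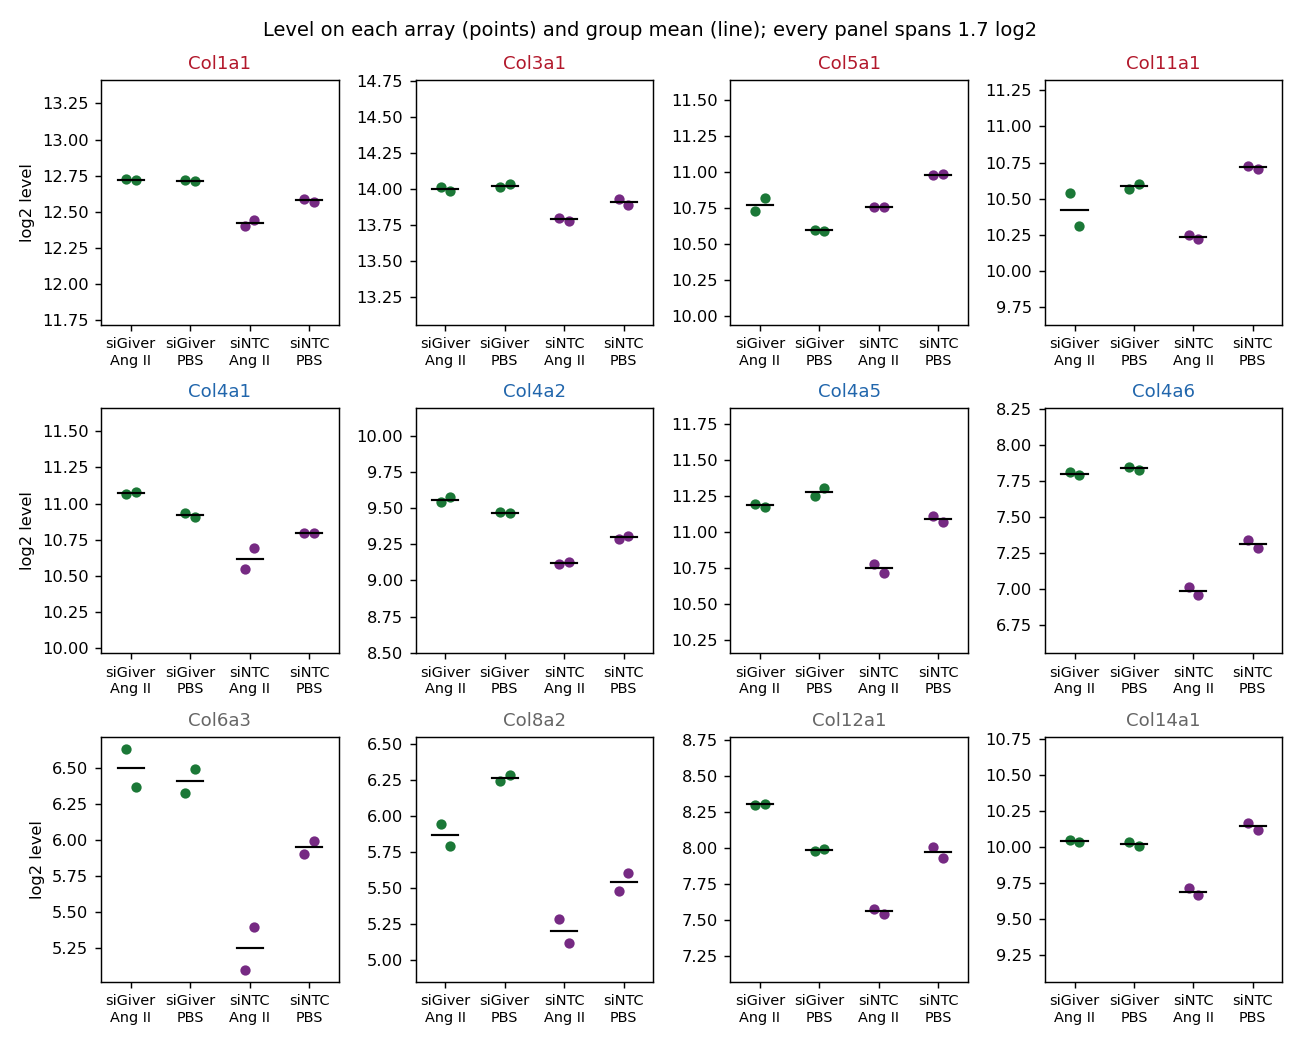
Log2 level on each array (points, green siGiver and purple siNTC) and group mean (line) for 12 collagen genes, with titles coloured by class and every panel spanning the same log2 range. Col4a6, Col6a3 and Col8a2 are higher in both siGiver groups, Col12a1 is highest in siGiver Ang II and lowest in siNTC Ang II arrays, and Col5a1 is highest in siNTC PBS arrays.

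Collagen chains are hydroxylated, glycosylated and folded in the endoplasmic reticulum before they leave the cell. Of 23 genes listed for these steps, 20 were tested. In siGiver cells 9 were higher and 4 lower in PBS, and 11 were higher and 5 lower with Ang II, so 65% and 80% passed, against 35% and 44.3% of all tested genes. The Ang II difference in siNTC cells passed for 1 of the 20, where 6.14% of all tested genes passed, so this count is no result about the list. In siGiver cells the Ang II difference passed, by limma, for 0, where 16.3% of all tested genes passed. At an unadjusted p under 0.05, 2 were higher and none lower in siGiver cells.

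Plod2, the lysyl hydroxylase that prepares stable cross-links, had the largest difference in this list. It was higher in siGiver cells by 1.09 ± 0.047 in PBS (adjusted p = 1.86e-05) and 1.32 ± 0.047 with Ang II (adjusted p = 4.33e-06), and was the gene that fell with Ang II in siNTC cells, by 0.31 on the log2 scale (adjusted p = 0.00942). P3h3, of the prolyl 3-hydroxylase family, was higher by 0.91 ± 0.050 in PBS and 0.98 ± 0.050 with Ang II. The foldase gene Fkbp10 was higher by 0.55 ± 0.045 and 0.58 ± 0.045. P3h4, which acts with lysyl hydroxylase, differed by -0.34 ± 0.047 in PBS and -0.44 ± 0.047 with Ang II, and Serpinh1, the collagen chaperone Hsp47, was higher by 0.35 ± 0.044 and 0.48 ± 0.044. The list therefore held genes that differed in both directions.

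Of 14 genes for collagen trimming and cross-linking, 7 were on the array and tested, and 2 were lower in siGiver cells in PBS and 3 with Ang II. These shares, 28.6% and 42.9%, lie near the 35% and 44.3% of all tested genes that passed, so the counts are no result about the list. Lox, the lysyl oxidase that cross-links fibrillar collagens and elastin, was lower in siGiver cells, with a difference of -0.63 ± 0.043 in PBS (adjusted p = 7.65e-05) and -0.40 ± 0.043 with Ang II (adjusted p = 0.000269), and fell with Ang II in siNTC cells by 0.22 on the log2 scale (adjusted p = 0.028). Loxl3, a related oxidase, rose with Ang II in siNTC cells by 0.42 ± 0.050 (adjusted p = 0.00392) and had an interaction of -0.42 ± 0.071 (adjusted p = 0.0151). Bmp1, the protease that trims procollagen, was lower in siGiver cells in PBS (-0.25 ± 0.059, adjusted p = 0.0134). With Ang II present, Loxl3 and Loxl2 were lower, with differences of -0.55 ± 0.050 and -0.35 ± 0.10.

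**Figure D5:**
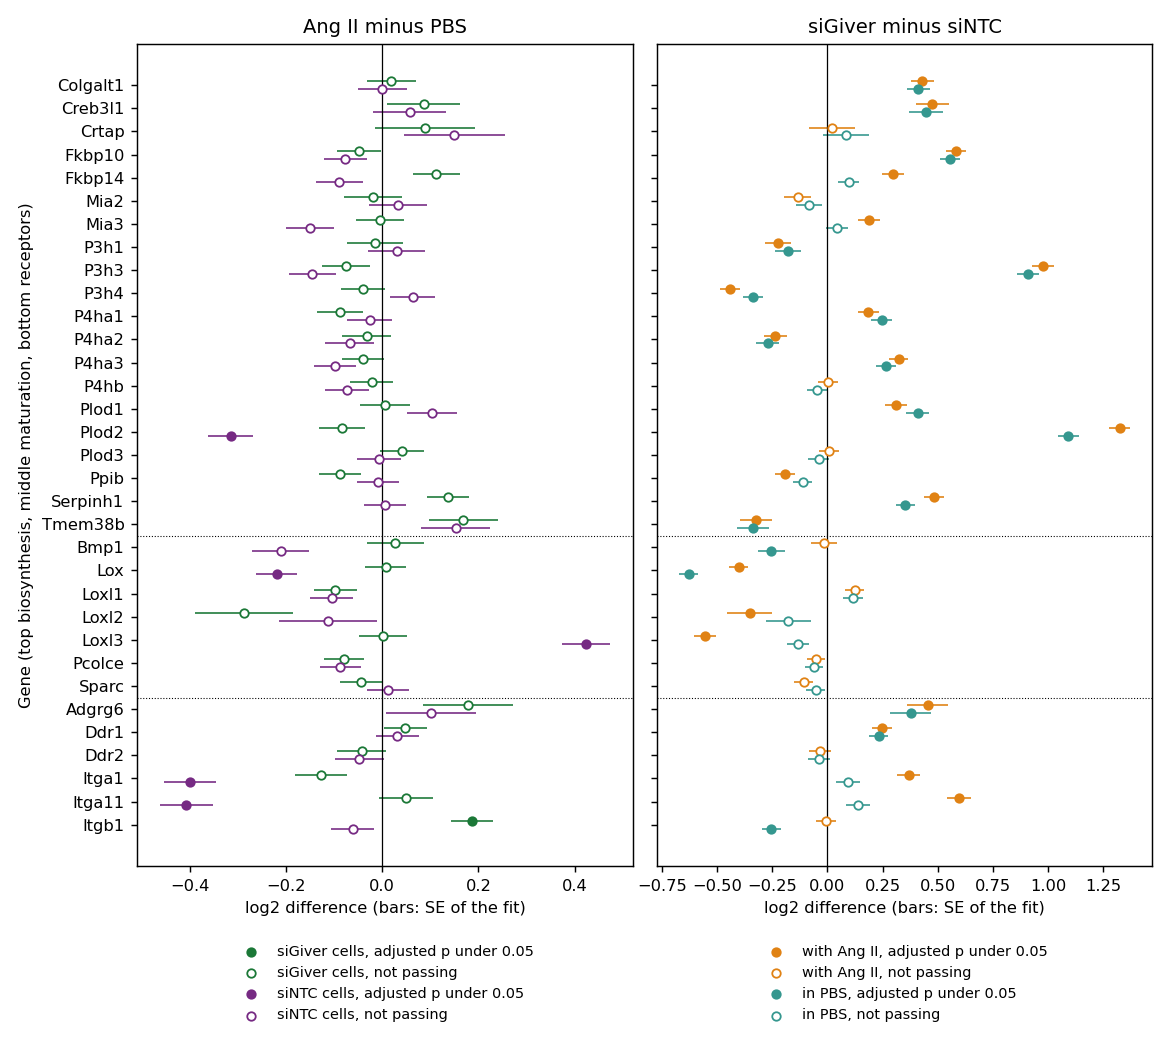
Log2 differences ± SE for genes of collagen biosynthesis (top), maturation (middle) and collagen receptors (bottom), with Ang II minus PBS on the left (siGiver green, siNTC purple) and siGiver minus siNTC on the right (with Ang II orange, in PBS teal), filled at adjusted p under 0.05. Plod2 and P3h3 lie farthest right in the right panel, and Lox and Loxl3 farthest left.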

How the data were processed

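RNA was measured on 8 arrays in 4 groups of 2. The authors deposited log2 values, 1 per probe set and array, made with RMA and Partek per the submitters' processing notes. For both, the version is not given in the sources used here. Values of RMA are quantile-normalized, which removes global shifts. Array medians lay between 6.15 and 6.19. Precision is limited by having 2 arrays in each group.

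Probe sets (31099) were named through the platform annotation, and 58 carry a collagen symbol. All 58 gene identifiers matched RefSeq's rat gene table (GRCr8). Probe sets averaging below the 30th percentile were left out, and the brightest per gene was kept. Limma 3.58.1 in R 4.3.3 was fitted to all 8 arrays with 1 mean per group (4 residual and 3.53 prior degrees of freedom), and 5 contrasts were adjusted over 11377 genes. Promoter windows (250 bases before to 50 after a start) are RefSeq's. The script was tested on simulated data. The collagen genes, lists and alternatives were chosen with earlier results of these data known. Genes named are collagen genes called in any contrast, 8 always given (Col1a1, Col1a2, Col3a1, Col4a1, Col4a2, Col5a1, Col6a3 and Col8a1), and up to 4 of the smallest p per related list, with others given for context. Alternatives were the filter (none, 50th percentile), probe set choice, cyclic loess, array medians subtracted, trended and robust moderation, fits of only the groups compared, a replicate block, a 1.5-fold threshold and each array left out. The Giver transcript was not analysed here.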

Additional observations from a re-analysis of the deposited data

Results flagged for a closer look

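For 8 collagen genes the Ang II effect differed between the siRNA arms by the interaction test (limma, adjusted p under 0.05). The interactions, siGiver minus siNTC, were 0.73 for Col12a1, 0.47 for Col14a1, 0.74 for Col19a1, 0.40 for Col5a1, 0.79 for Col6a3, 0.29 for Col18a1, 0.27 for Col4a2 and 0.29 for Col4a6. Of these, Col12a1 and Col14a1 passed whichever array was left out. With 2 arrays per group, no group was large enough to be screened for a single array far from the others.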

How the results depend on the processing

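No called collagen difference changed sign in an alternative fit read at the gene's brightest or averaged probe sets, although the second Col1a1 probe set stood at -0.04 for the siRNA in PBS, where the brightest was called at 0.14. For the 20 genes called at least once plus Col1a2 and Col8a1, 180 of 815 alternative fits of called differences no longer passed, and 62 of 1013 fits of differences not called now passed. Leaving out 1 array at a time gave 2 to 8 collagen genes for Ang II in siNTC cells (10 with all arrays, and 2, 4, 5 and 3 without siNTC PBS replicates 1 and 2 and siNTC Ang II replicates 1 and 2), 1 to 4 for Ang II in siGiver cells (4 with all arrays, and 2 without any single siNTC Ang II or siGiver PBS array, 1 without siGiver Ang II replicate 2), 7 to 11 for the siRNA in PBS (12, and 7 without siGiver PBS replicate 2), 13 to 15 for the siRNA with Ang II (15) and 2 to 5 for the interaction (8), whichever array was left out. Requiring 1.5-fold as well left 1, 0, 1, 6 and 3 genes in these comparisons, as the construction of that threshold implies. Trended, robust moderation gave 18 for Ang II in siNTC cells, 8 for Ang II in siGiver cells and 18 for the interaction. For Ang II in siGiver cells, 2 genes passed without the filter, with the mean of probe sets, with every probe set on its own and with only those groups fitted. For the interaction, 4 passed without the filter and 5 with every probe set on its own, where more features are tested. For Ang II in siGiver cells the split was 2 higher and 2 lower in the report, 3 higher and 1 lower with array medians subtracted and 2 higher and 1 lower with cyclic loess. The cause of these changes was not tested otherwise. Replicate numbers are shared between groups in the labels. Deviations of same-numbered arrays correlated between -0.17 and 0.096, so no strong shared shift was seen in the values. If the numbers mark a shared culture or run cannot be told from these correlations. For the siRNA with Ang II, 1 collagen gene was called lower in 5 alternative fits. With the number as a replicate block, 2 genes passed for Ang II in siGiver cells and 4 for the interaction. Fitting only the groups of a contrast is not an alternative for the interaction, which uses all 4. Signal over background limits the 9 genes below the filter, whose changes could not be assessed.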

Other observations

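Collagen receptors were not part of the comparisons above. Of 12 listed, 7 were on the array and 6 were tested. Itga11 and Itga1, the alpha chains of integrins that bind fibrillar and basement membrane collagens, fell with Ang II in siNTC cells by 0.41 and 0.40 on the log2 scale (SE 0.056 and 0.054, limma adjusted p = 0.00702 and 0.00636). Their differences with Ang II in siGiver cells were 0.05 ± 0.056 and -0.13 ± 0.054, and neither passed. The interaction passed for Itga11 (0.46 ± 0.079, adjusted p = 0.0167). With Ang II present, Itga11 was higher in siGiver than in siNTC cells by 0.60 ± 0.056 and Itga1 by 0.37 ± 0.054. Itgb1, the beta chain that pairs with both, was lower in siGiver cells in PBS (-0.25 ± 0.044, adjusted p = 0.00359) and rose with Ang II in siGiver cells by 0.19 ± 0.044 (adjusted p = 0.0281). The receptor tyrosine kinase gene Ddr1, whose product binds collagen, was higher in siGiver cells by 0.23 ± 0.044 in PBS and 0.25 ± 0.044 with Ang II, whereas Ddr2 did not pass in any comparison. Adgrg6, also listed as a receptor, was higher in siGiver cells in PBS (0.38 ± 0.093, adjusted p = 0.0168). With Ang II, mean levels of Adgrg6 were 7.55 log2 in siGiver and 7.09 in siNTC cells.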
